A study of Mus musculus with 26 samples.

Results

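10 genes of the leukemia inhibitory factor (LIF) pathway were examined in E14 mouse embryonic stem cells (mESCs): the receptor genes Lifr and Il6st, the kinase gene Jak1, the transcription factor gene Stat3, the feedback inhibitor genes Socs1, Socs2 and Socs3, and the target genes Junb, Pim1 and Pim3. They were named as a list by their place in the pathway, 10 of the 21924 protein-coding genes in GENCODE M21 (GRCm38), and not by a rule on measured values. Earlier results of these data were known when the list was chosen. All cells were feeder-free E14 mESCs of 1 line, plated and grown for 48 h in serum-containing ES medium with LIF. For the last 4 h, the medium was replaced by fresh medium with LIF (mESC+) or with 1 µM retinoic acid (RA) in place of LIF (mESC-), so that the loss of LIF and the gain of RA cannot be told apart. Open chromatin was measured by ATAC-seq in 1 library per state, enhancer probability from histone mark ChIP-seq in 4 libraries per state (1 each of H3K4me1, H3K4me3, H3K27ac and input), and RNA in 3 libraries per state.

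LIF binds a receptor made of LIFR and gp130, the product of Il6st, and the kinases bound to the receptor, JAK1 among them, phosphorylate STAT3. Phosphorylated STAT3 enters the nucleus, binds DNA with the consensus TTCCNGGAA and, in mouse embryonic stem cells, helps to maintain self-renewal. Socs3 is among its direct targets, and the SOCS3 protein binds gp130 and JAK and closes a negative feedback loop.

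The ATAC-seq peaks had been called by the authors in each library separately with MACS2, which gave 163484 peaks in mESC+ and 141465 in mESC-. 3 quantities were read from each peak. The summit pileup is the number of reads or fragments stacked at the highest point. Which of these MACS2 counted is not known, and the intervals below take each as 1 independent count. The local background is the pileup that MACS2 expected at that point from the reads around the peak. The fold enrichment is the summit pileup over the local background after adding 1 to each. The median summit pileup was 15 in mESC+ and 14 in mESC-, so counting error was large for any single peak. Differences are given as log2 ratios of mESC- over mESC+. The ratio of fold enrichment was centred on the median of all peaks found in both lists, which had been -0.09, and the ratios of pileup and of local background were divided by the ratio of the genome-wide backgrounds, 0.880. With 1 library per state no difference was tested, and intervals are exact 95% limits that cover counting error only. All 8 stem cell marker genes, Pou5f1 and Nanog among them, had a promoter peak in both lists, while 3 of 8 fibroblast markers (Col1a1, Col3a1 and Lum) and 4 of 5 blood markers had none in either. All 5 neuronal and all 5 primitive endoderm markers also had a promoter peak, so a promoter peak does not show that a gene is used. At the promoters of 6 genes known to respond to RA, the pileup ratio was above 0 at 5, and the fold enrichment ratio was below 0 at 4.

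Within 100 kb of the 10 genes lay 332 peaks of the mESC+ list and 279 of the mESC- list, which merged into 361 regions, 229 of them in both lists. Of the mESC+ peaks, 97 (29.2%, 24.4 to 34.4) had no partner in the mESC- list, beside 26.1% of all mESC+ peaks. Of the mESC- peaks, 35 (12.5%, 8.90 to 17.0) had no partner in the mESC+ list, beside 14.1% of all mESC- peaks. Both shares were near those of all peaks. Peaks in the mESC+ list alone were shallow, with a median pileup of 10 beside 25 for the shared ones. Among the 229 shared regions, 10 (4.37%) were at least 1.5-fold higher in mESC+ by fold enrichment, beside 4.61% of all shared regions, and 8 (3.49%) were at least 1.5-fold higher in mESC-, beside 4.05%. As a group, the regions around the LIF pathway genes therefore did not stand out by fold enrichment. By summit pileup, 153 of the 229 (66.8%) were lower in mESC-, beside 55.2% of all shared regions. The counting interval of the pileup ratio lay wholly below 0 at 5 of 229 (2.18%), beside 0.619% of all shared regions, and wholly above 0 at none, beside 0.365%. These shares are not matched for depth, and a deeper region excludes 0 more readily. The median pileup of shared peaks near the members was 25 in mESC+ and 19 in mESC-, beside 19 and 15 for all shared peaks. Of these 5 regions, 4 lay near Socs3 and 1 near Socs1.

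**Figure D1:**
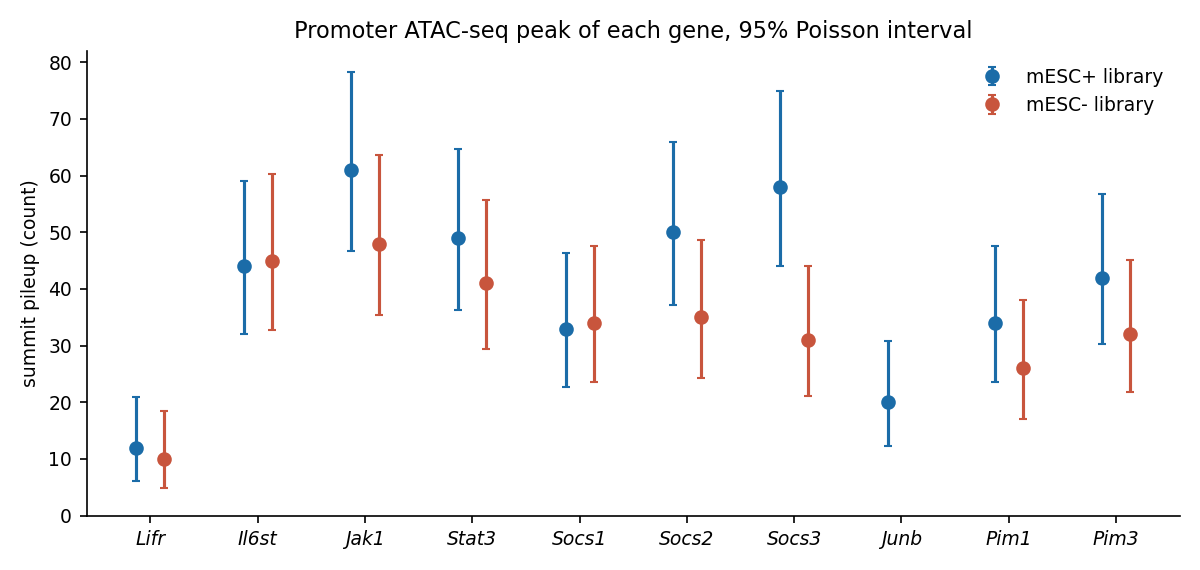
Summit pileup (a count, not scaled for library depth) of the strongest promoter peak of each of the 10 genes in the mESC+ and mESC- ATAC-seq libraries, with 95% Poisson intervals. Socs3 shows the widest gap, 58 against 31, Il6st and Socs1 are level, Junb has no mESC- peak at its start, and the peaks of Lifr and Socs2 lie at different start sites in the 2 lists.

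Neither receptor gene had a promoter past 1.5-fold. Il6st, on chromosome 13, had a pileup of 44 in mESC+ and 45 in mESC- at its promoter peak (chr13:112463813-112464287), with a pileup ratio of 0.22 (-0.42 to 0.85). A stronger peak 1423 bp before its start held 56 and 50. No difference at Il6st was detectable at this depth. Lifr, on chromosome 15, has several start sites and weak peaks at each. The pileup was 12 and 8 at the first start, 23 and 18 at another start 39151 bp further on, and 15 and 10 at a start 49880 bp further on. The strongest Lifr peak lay in an intron, 42320 bp from the start, and held 64 and 58. The pileup ratios ranged from -0.40 to -0.17 at the 3 starts and stood at 0.04 at the intronic peak, and none of their intervals excluded 0. One exonic Lifr peak, 88476 bp from the start, was past 1.5-fold by fold enrichment, with pileups of 24 and 11 and a ratio of -0.80.

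Within 100 kb, the receptor genes had the highest shares of peaks seen in mESC+ alone. Lifr had 16 of 37 (43.2%, 27.1 to 60.5) and Il6st 12 of 28 (42.9%, 24.5 to 62.8), and together 28 of 65 (43.1%, 30.8 to 56.0), beside the 26.1% of all mESC+ peaks. The interval for Il6st alone included that level. It was 15 of 50 for Jak1 and Stat3 together, 25 of 95 (26.3%) for the Socs genes and 23.8% for Junb, Pim1 and Pim3 together. For the receptors the share was 38.5% (10 of 26, 20.2 to 59.4) among peaks with a -log10 q of at least 10, beside 27.5% of all mESC+ peaks of that strength, and 34.7% (17 of 49) with the mESC+ list shortened to the length of the mESC- list, where all mESC+ peaks stood at 20.1%. The order of the genes did not hold in the other settings. At a -log10 q of at least 10 Socs3 was highest, at 55.6%. Within 20 kb the receptors stood at 36.6% (15 of 41), below Stat3 at 42.9% (3 of 7) and Pim3 at 41.7% (5 of 12), and with the shortened list Lifr was at 30.8% and Pim3 at 31.0%. The receptor one-list peaks with the strongest q-values were small. That of Lifr lay 33675 bp before its start (chr15:7056820-7057036) with a pileup of 14, and that of Il6st 98180 bp before its start, in an intron of Ankrd55, with 14. Deeper ones with weaker q-values held 18 (chr15:7134565-7134716) and 16 (chr15:7134770-7134899) in a Lifr intron, and 20 at another annotated Il6st start 3569 bp downstream (chr13:112467517-112467698). Of the 36 receptor regions in both lists, 28 had a lower pileup in mESC-, with a median ratio of -0.24. In the other direction, 3 of 40 mESC- peaks near the receptors (7.50%, 1.57 to 20.4) were absent from the mESC+ list, an interval that included the 14.1% of all mESC- peaks. By q-value the strongest was an intronic Lifr peak with a pileup of 11, and the 1 such Il6st peak held 13. The extreme fold enrichment ratios of shared regions near Il6st were -0.75, at 39718 bp before the start with 18 and 9, and 0.59, in an exon 39962 bp from the start with 6 and 8. The highest near Lifr was 0.46, with 9 and 12.

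**Figure D2:**
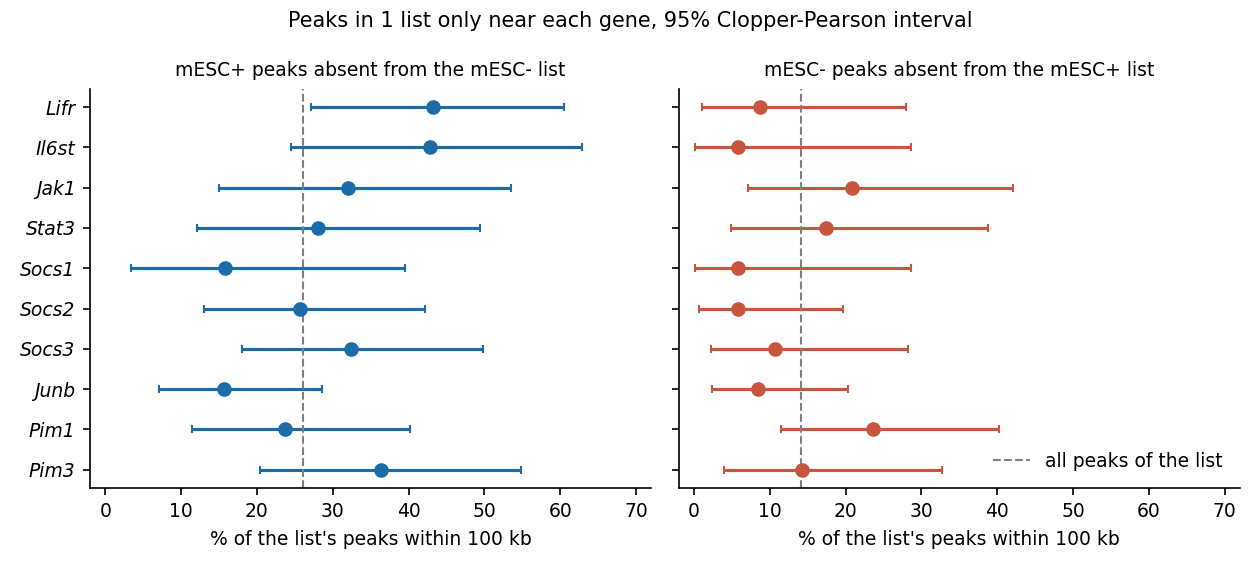
Percentage of the peaks within 100 kb of each gene that occur in the mESC+ list alone (left) or the mESC- list alone (right), with 95% Clopper-Pearson intervals and the level of all peaks as a dashed line at 26.1% and 14.1%. Lifr at 43.2% and Il6st at 42.9% are the highest on the left, and Pim1 at 23.7% is the highest on the right.

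Jak1 and Stat3, which carry the signal from the receptor to the nucleus, kept strong promoter peaks in both states. The Jak1 promoter (chr4:101264390-101265471) was among the strongest peaks of each list, at the 98.2nd percentile of fold enrichment in mESC+ and the 95.4th in mESC-. Its pileup was 61 and 48, a ratio of -0.16 (-0.74 to 0.41). The Stat3 promoter (chr11:100939339-100939972) held 49 and 41, a ratio of -0.07 (-0.71 to 0.56). Both intervals spanned 0, and for Stat3 the fold enrichment ratio had the other sign, 0.19. Away from the promoters, the lowest fold enrichment ratio near Jak1 was -0.71, at a peak 55494 bp before its start with pileups of 23 and 12, and the highest was 0.47, with 13 and 16. Near Stat3, 1 region was past 1.5-fold in each direction: pileups of 13 and 7 in an intron of Stat5b (ratio -0.64), and of 9 and 14 at a region 46277 bp before the start (ratio 0.76). Of the peaks in 1 list only, those with the strongest q-value near Jak1 held 15 in mESC+ and, in an intron, 10 in mESC-. Near Stat3 they held 12 and 9, while deeper ones with weaker q-values held 13 and 11.

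Among the 3 SOCS genes, whose products bind cytokine receptors or JAK kinases and damp their signal, Socs3 had by far the most regions that were lower in mESC-. Socs3 lies on the minus strand of chromosome 11 (117966079-117970047). Its promoter peak (chr11:117969038-117969579) had a pileup of 58 (44.0 to 75.0) in mESC+ and 31 (21.1 to 44.0) in mESC-, a ratio of -0.72 (-1.40 to -0.07). It was the 1 promoter of the 9 with a peak in both lists whose counting interval did not reach 0. The share of all promoters with such an interval was not counted, so how unusual this is cannot be said. By fold enrichment the Socs3 promoter peak stood at 10.2 and 7.46, a ratio of -0.36, which is under 1.5-fold. That ratio was at the 5.34th percentile of the 14660 promoters with a peak in both lists. Of those promoters, 1.12% were at least 1.5-fold higher in mESC+ and 1.06% in mESC-, and none of the 9 members was in either set. A second peak at the very start of the gene held 32 and 19.

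The lower values were not limited to the promoter. Of the 24 shared regions within 100 kb of Socs3, 21 had a lower pileup in mESC-, with a median ratio of -0.40, and 8 were at least 1.5-fold lower by pileup, beside 7.83% of all shared regions. By fold enrichment, which is taken relative to the local background, the median was -0.02, and 2 regions were past 1.5-fold in each direction. The deepest of the 8 lay 35673 bp beyond the start, past the 3' end of the gene (chr11:117934076-117934565). It held 61 in mESC+ and 22 in mESC-, a ratio of -1.29 (-2.06 to -0.56). A neighbour 30217 bp from the start (chr11:117939755-117940040) held 26 and 9, a ratio of -1.35 (-2.62 to -0.21). On the other side, a region 6417 bp before the start (chr11:117976274-117976620) held 41 and 20, a ratio of -0.85 (-1.70 to -0.05). All 3 are outside protein-coding genes, and for all 3 the nearest gene start is that of Socs3. Only 3 of the 24 had a higher pileup ratio than 0, the highest 0.39 at a region 77656 bp away with 20 and 23. That same region had the highest fold enrichment ratio of all members, 1.10, since its local background was 3.15 in mESC+ and 1.36 in mESC-. By q-value, the strongest Socs3 peak of the mESC+ list alone lay 81860 bp away and held 26, and the strongest of the mESC- list alone held 10. Of the mESC+ peaks near Socs3, 12 of 37 (32.4%, 18.0 to 49.8) were absent from the mESC- list. Among peaks with a -log10 q of at least 10 it was 10 of 18 (55.6%, 30.8 to 78.5), beside 27.5% of all mESC+ peaks of that strength.

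The summit sequences of the distal Socs3 regions are shown because these are the ones whose counting interval excluded 0, together with the mESC+ peak 7393 bp from the start that is described with the STAT sites. Each is 300 bases of GRCm38, plus strand, around the summit, with any match to the looser STAT pattern TTCNNNGAA in capitals.
Socs3, 35673 bp from the start, chr11:117934225-117934524: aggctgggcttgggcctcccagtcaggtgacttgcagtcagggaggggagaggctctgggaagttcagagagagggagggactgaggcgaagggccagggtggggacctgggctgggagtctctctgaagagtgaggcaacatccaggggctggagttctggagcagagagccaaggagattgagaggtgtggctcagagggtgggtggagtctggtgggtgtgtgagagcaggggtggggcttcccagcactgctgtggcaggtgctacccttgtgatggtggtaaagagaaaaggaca
Socs3, 30217 bp from the start, chr11:117939681-117939980: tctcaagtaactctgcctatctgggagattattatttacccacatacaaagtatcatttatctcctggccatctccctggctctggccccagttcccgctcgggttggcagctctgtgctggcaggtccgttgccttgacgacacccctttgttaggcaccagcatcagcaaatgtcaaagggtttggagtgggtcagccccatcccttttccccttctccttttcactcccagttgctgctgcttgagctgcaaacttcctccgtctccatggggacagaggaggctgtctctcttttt
Socs3, 7393 bp from the start, chr11:117962505-117962804: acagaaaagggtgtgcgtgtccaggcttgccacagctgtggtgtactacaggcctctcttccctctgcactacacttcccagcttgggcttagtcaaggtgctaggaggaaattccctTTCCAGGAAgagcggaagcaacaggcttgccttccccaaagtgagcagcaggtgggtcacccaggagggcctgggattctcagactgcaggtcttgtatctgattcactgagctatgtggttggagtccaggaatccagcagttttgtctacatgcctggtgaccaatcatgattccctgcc
Socs3, 6417 bp before the start, chr11:117976315-117976614: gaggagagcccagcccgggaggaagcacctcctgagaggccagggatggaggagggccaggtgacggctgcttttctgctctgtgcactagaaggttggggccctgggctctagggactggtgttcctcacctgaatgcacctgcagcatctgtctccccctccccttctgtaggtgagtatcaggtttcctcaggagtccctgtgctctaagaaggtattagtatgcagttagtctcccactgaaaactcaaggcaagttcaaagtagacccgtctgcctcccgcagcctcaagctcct

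The windows had 61.0%, 52.7%, 54.0% and 57.3% G or C. Neither TTCNNNGAA nor TTCCNGGAA occurs in 3 of them, which says nothing of other letters a factor may bind. The window 7393 bp from the start holds TTCCNGGAA once.

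Socs1 and Socs2 differed from Socs3. The Socs1 promoter peak (chr16:10785051-10785737) held 33 and 34, a ratio of 0.23 (-0.51 to 0.96). However, 1 region 18168 bp downstream of the Socs1 start (chr16:10767279-10767521) had the lowest ratio of any member region, with pileups of 21 and 6, a pileup ratio of -1.62 (-3.22 to -0.27) and a fold enrichment ratio of -1.48. Only 3 of 19 mESC+ peaks near Socs1 (15.8%, 3.38 to 39.6) were absent from the mESC- list. The strongest by q-value held 10, and the 1 peak of the mESC- list alone held 11, while the highest fold enrichment ratio was 0.37, with 21 and 23. Socs2, on chromosome 10, has peaks at more than 1 start: 41 and 35 at the upstream one (chr10:95416646-95417464), and 50 and 32 at one 1739 bp further on. Their ratios, -0.04 (-0.74 to 0.64) and -0.46 (-1.15 to 0.21), did not exclude 0, and the fold enrichment ratio was 0.37 at the former. Of the 29 shared regions near Socs2, 15 were lower in mESC- by pileup, close to an even split. By fold enrichment its median was 0.17, at the 98.9th percentile of the 16560 protein-coding genes with at least 10 shared regions within 100 kb, with extremes of -0.59 (24 and 13) and 0.63 (10 and 13). By q-value, the strongest Socs2 peaks of 1 list held 13 in mESC+ and 14 in mESC-.

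Junb and the kinase genes Pim1 and Pim3, which are induced by STAT3 in many cell types, each had their own pattern. At the start of Junb a shallow peak (chr8:84978743-84978900) was in the mESC+ list alone, with a pileup of 20 and a fold enrichment of 2.79. The main Junb peak, 2094 bp downstream (chr8:84976257-84976807), was in both lists with 54 and 44, and a peak 1294 bp before the start held 44 and 33. Over all 41 shared regions near Junb, 33 had a lower pileup in mESC-, but the differences were small, with a median of -0.14, and none was past 1.5-fold by fold enrichment, with extremes of -0.56 and 0.52. By q-value, the strongest Junb peaks of 1 list held 18 in mESC+ and 23 in mESC-. Pim3 had 42 and 32 at its promoter (chr15:88861935-88862526), 63 and 54 in its intron, and 71 and 57 at a peak 5584 bp from the start. All 3 had pileup ratios from -0.21 to -0.04 with intervals that included 0, and fold enrichment ratios of the other sign, from 0.20 to 0.32. Over its 21 shared regions the median fold enrichment ratio was 0.13, at the 96.2nd percentile of the same 16560 genes, with extremes of -0.58 (17 and 9) and 0.42 (42 and 43). The one-list peak of any member with the strongest q-value, with a pileup of 32 and a -log10 q of 14.3, lay 23913 bp before Pim3 and was in mESC+ alone. That peak (chr15:88838122-88838365) lies next to a shared region (chr15:88837179-88838062) with 49 and 35, so its one-list status may depend on where peaks were split. The deepest one-list peak, with 35, was also in mESC+ alone and lay 5021 bp from the Pim3 start (chr15:88867147-88867290). By q-value, the strongest Pim3 peak of the mESC- list alone held 10.

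Pim1 was the 1 gene whose surroundings were mostly higher in mESC- by summit pileup and local background, though not by fold enrichment. Its promoter peak (chr17:29490223-29491040) was not, at 34 and 26, a ratio of -0.20 (-0.998 to 0.58), nor was an exonic peak at 32 and 21. Of its 28 shared regions, however, only 10 had a pileup ratio below 0, the median was 0.12, and 6 were at least 1.5-fold higher in mESC- by pileup, beside 5.37% of all shared regions. The 6 included a region 6331 bp from the start with 11 and 18, a region 13964 bp before it with 8 and 14, and a region 29182 bp after it, also with 8 and 14. None of these 3 intervals excluded 0. By fold enrichment the median was -0.02, with 3 regions at least 1.5-fold higher in mESC- and 2 in mESC+. Of the mESC- peaks near Pim1, 9 of 38 (23.7%, 11.4 to 40.2) were absent from the mESC+ list, an interval that included the 14.1% of all mESC- peaks. The share was the largest of the members within 100 kb and equal to that of Pim1 peaks in the mESC+ list alone (9 of 38), but within 20 kb it was 1 of 10 for Pim1 and 37.5% for Jak1. By q-value, the strongest Pim1 peaks of 1 list held 14 in mESC+ and 13 in mESC-. The extreme fold enrichment ratios near Pim1 were -0.71, with 18 and 11, and 0.76, at the region 29182 bp after the start.

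The local background gave a view of the wider surroundings of each gene. It was recovered for every peak from its pileup and fold enrichment, and without a control library MACS2 by default derives it from the reads within a 10 kb window, with the genome-wide level as its floor. Such a window holds the reads of the peak itself and of neighbouring peaks, so local background and summit pileup are not separate measures. At each of the 24 shared Socs3 regions the local background was lower in mESC-, with ratios from -1.14 to -0.04 and a median of -0.45. It was lower in mESC- at 62.1% of all shared regions, a share that includes regions at the floor whose ratio differs from 0 only by rounding. Among the regions above the floor in both lists it was lower at 56.6%. Regions close to each other share reads, so the 24 are not separate counts. The median level was 2.28 in mESC+ and 1.31 in mESC-. The lowest ratios, from -1.14 to -0.89, were at the 5 regions from 28078 to 39094 bp beyond the start, and again at 77656 bp (-1.03) and 80739 bp (-1.04). The ratio came back to -0.13 at 51941 bp and -0.04 at 79798 bp before the gene. From 100 to 500 kb away the median over 81 shared regions was -0.14.

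Around Pim1 the local background went the other way. It was higher in mESC- at 25 of 28 shared regions and lower at 1, with a median of 0.35 and medians of 1.60 in mESC+ and 2.02 in mESC-. Of all shared regions above the floor, 56.6% were lower in mESC-. The highest ratio, 0.87, lay 22604 bp from the start, and the promoter itself stood at 0.06. Regions 35021 bp and more beyond the start were between -0.07 and 0.03, and from 100 to 500 kb away the median over 100 regions was 0.04.

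**Figure D3:**
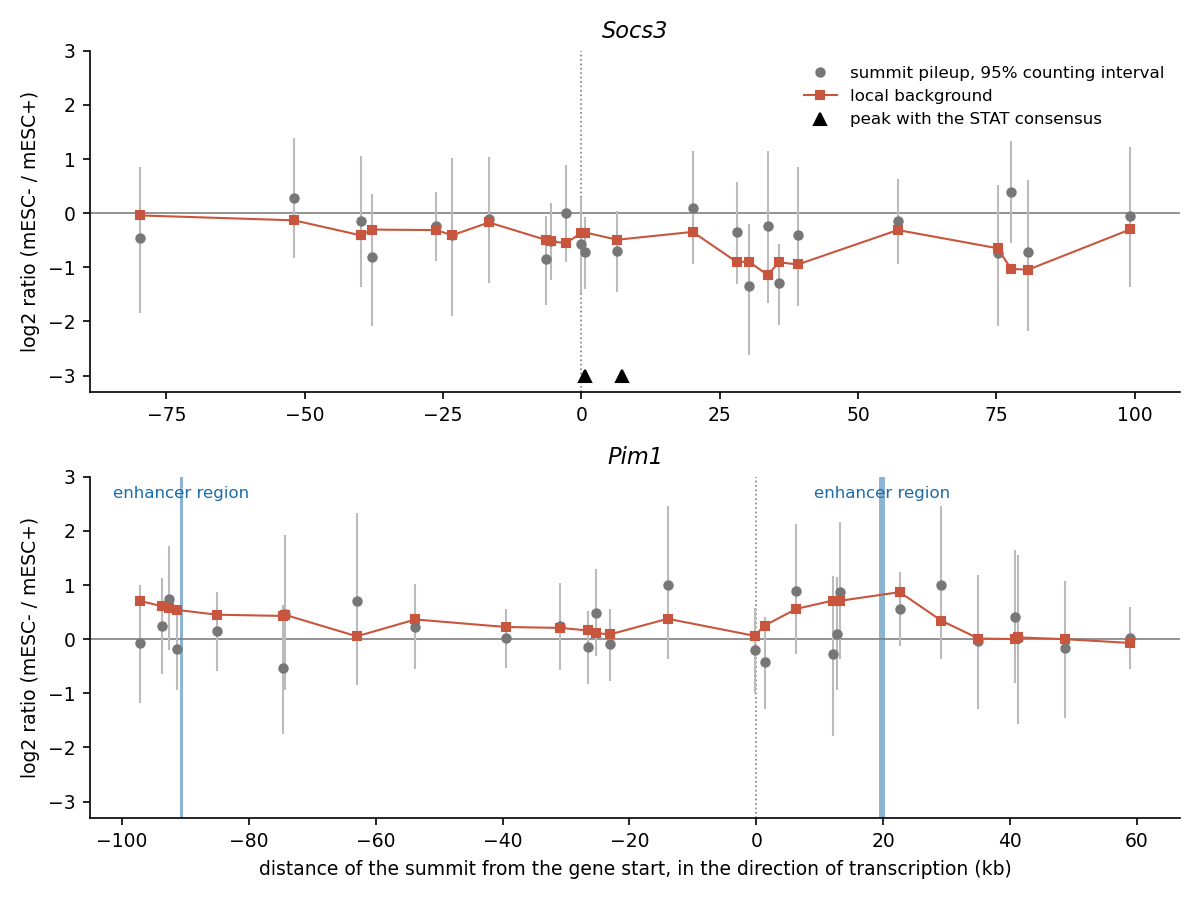
Log2 ratio of mESC- over mESC+ of the local background (squares, line) and of the summit pileup (circles, with 95% counting intervals) at each shared region around Socs3 and Pim1, against the distance from the gene start in kb. The line lies below 0 across all 24 Socs3 regions, from -1.14 to -0.04, and reaches 0.87 at Pim1 next to the enhancer region drawn as a blue band. Triangles mark Socs3 peaks with TTCCNGGAA.

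Both genes lay at the ends of the range over the 16560 protein-coding genes with at least 10 shared regions within 100 kb. Socs3 had the 3rd lowest median local background ratio of these, after Rtl1 (-0.51) and Cdc5l (-0.46), and Pim1 the 9th highest. Pgs1, a neighbour of Socs3 that shares regions with it, was 6th lowest, at -0.36, so the low values were not particular to Socs3. The highest were Dhrs3, which encodes a retinaldehyde reductase, at 0.62, and Nrip1, which encodes a nuclear receptor corepressor, at 0.62. Socs3 and Pim1 were on the list of 10 members, but like the other genes named here they were singled out after their values were seen. The local background measure was itself chosen after the data were seen, so the ranks of Socs3 and Pim1 are those of picked extremes. The 5th and 95th percentiles over genes were -0.16 and 0.09. When regions at the floor were left out, Socs3 was 7th lowest and Pim1 9th highest of 13728 genes. By the median pileup ratio, Socs3 was at the 0.139th percentile and Pim1 at the 95.9th. Genes close to each other share regions, and regions close to each other share their background, so these ranks are a description. The remaining members were spread over the lower part of the range: Pim3 (-0.28) at the 0.338th percentile, Stat3 (-0.20) at the 2.04th, Lifr (-0.18) at the 2.78th, Socs2 (-0.18) at the 2.88th, Junb (-0.18) at the 3.20th and Il6st (-0.14) at the 6.39th. Jak1 and Socs1 were in the middle, at the 59.7th and 58.2nd. Without the regions at the floor, Lifr moved to the 9.04th, Junb to the 6.59th, Socs2 to the 5.43rd and Socs1 to the 34.4th, Stat3 moved outward to the 0.860th, Pim3 stood at the 0.943rd and Jak1 at the 53.1st, and Il6st had under 10 regions left.

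**Figure D4:**
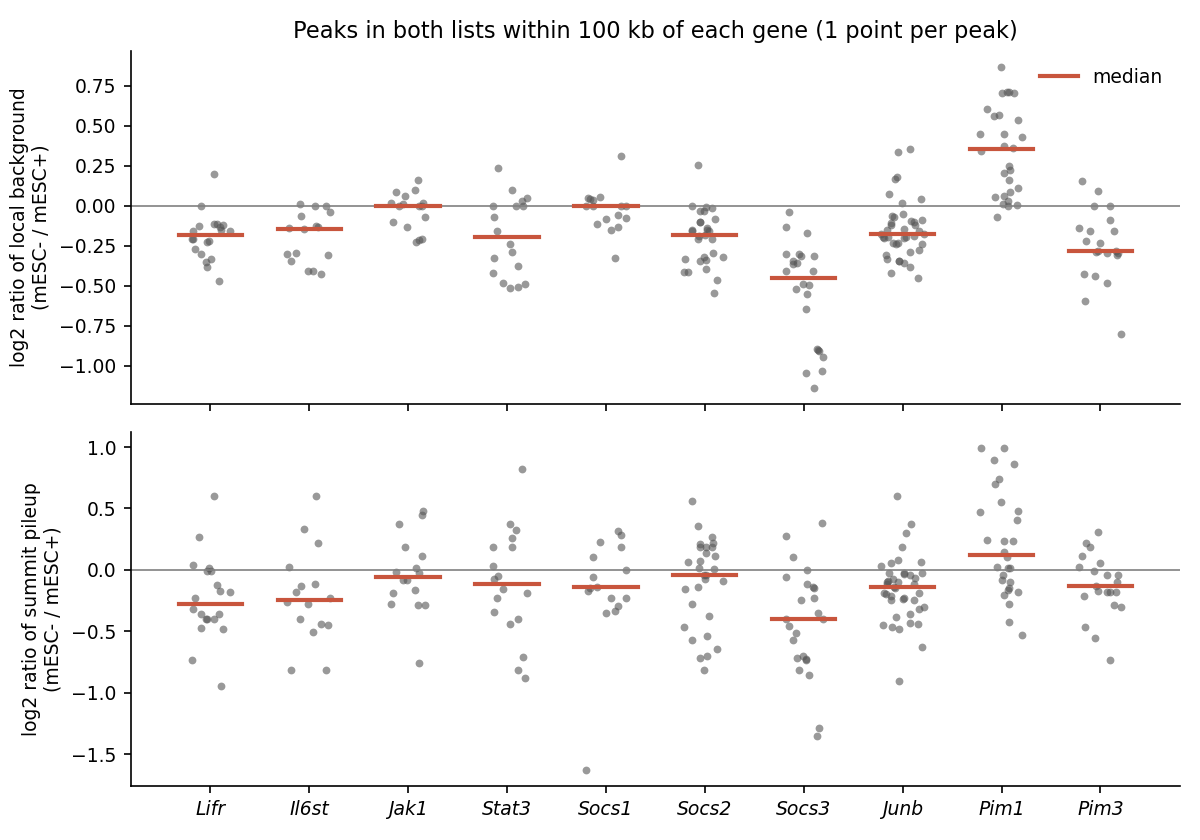
Log2 ratio of mESC- over mESC+ of the local background (top) and of the summit pileup (bottom) for each of the 229 regions in both lists within 100 kb of the 10 genes, with the median of each gene as a bar. Socs3 has the lowest medians, -0.45 and -0.40, Pim1 the highest, 0.35 and 0.12, and the points of the other genes overlap.

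The STAT consensus TTCCNGGAA, which is its own reverse complement, was searched in 300 bp around each summit. It was found in 7 of the 361 member regions (1.94%, 0.783 to 3.95), beside 1.14% of all 179949 regions searched. That interval included the level of all regions. The start nearest to the distal Socs2 peak was that of Cradd. For the Stat3 peak it was that of Cavin1, and for the Jak1 peak that of Ak4. The sites are shown as matches to the motif of STAT3, in GRCm38, plus strand, with the consensus in capitals.
Socs3 promoter, 804 bp from the gene start, chr11:117969229-117969257: cgccccccgaTTCCTGGAActgcccggcc
Socs3, 7420 bp from the start, chr11:117962613-117962641: gaaattccctTTCCAGGAAgagcggaagc
Socs2 promoter, chr10:95416899-95416928: ccgctTTCCAGGAActTTCCAGGAAtccgc
Socs2, 71299 bp from the start, chr10:95345867-95345895: agaagactacTTCCAGGAAgctaggaaaa
Junb, 2140 bp from the start, chr8:84976564-84976592: ggggaggggaTTCCCGGAAtctgcccgga
Stat3, 17937 bp before the start, in an exon of Cavin1, chr11:100957463-100957491: aaaacaaggcTTCCCGGAAggcagttcct
Jak1, 84374 bp before the start, chr4:101349642-101349670: caactcttgaTTCCTGGAAatggttgcac

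The Socs2 promoter carried 2 copies of the consensus, whose first bases are 11 bases apart. The Socs3 promoter copy lies in the promoter peak described above, at 58 and 31. The second Socs3 copy lies in a peak of the mESC+ list alone (chr11:117962482-117962735), with a pileup of 25 (16.2 to 36.9). Both Socs3 peaks with the consensus were thus lower in mESC- or not called there. The peak with the distal Socs2 copy held 24 and 13, that with the Stat3 copy 26 and 13, that with the Junb copy 54 and 44, and that with the Jak1 copy 12 and 10. The Socs2 promoter pair lay in the peak with 41 and 35. All 6 shared peaks with the consensus in the 300 bp had a pileup ratio below 0, beside 55.2% of all shared regions and 66.8% of the shared member regions. The ratios were -0.04 at the Socs2 promoter pair, -0.08 at the Jak1 copy and -0.11 at the Junb copy. Only the interval of the Socs3 promoter excluded 0. By fold enrichment, 4 of the 6 had a ratio below 0, beside 48.9% of the shared member regions. Among all 1348 shared regions with the consensus, 6.60% were at least 1.5-fold higher in mESC+ and 2.30% in mESC-, beside 4.59% and 4.07% of shared regions without it. A match is a sequence description, and STAT3 binding was not measured here.

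**Figure D5:**
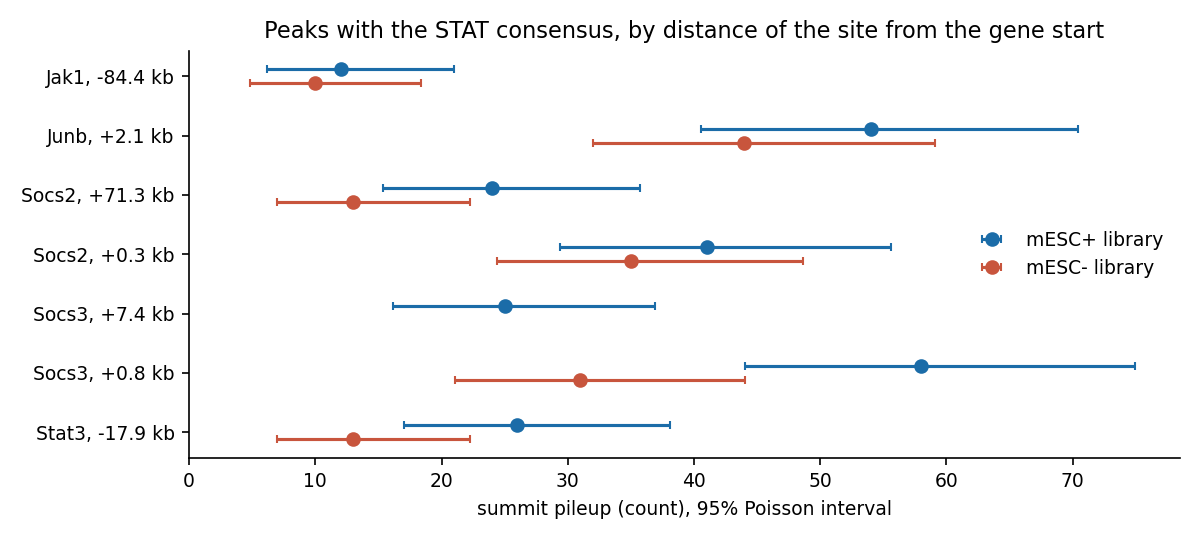
Summit pileup (count, not scaled for depth) in the mESC+ and mESC- libraries of the 7 member peaks with TTCCNGGAA in 300 bp around the summit. Bars are 95% Poisson intervals, and peaks are named by the distance of the site from the gene start. The mESC+ count is higher in all 6 shared peaks, with the widest gap at the Socs3 promoter (58 and 31), and the Socs3 peak at 7.4 kb has no mESC- peak.

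In the RefSeq promoter windows, 250 bases before to 50 after the start (GRCm38.p6), none of the 11 windows of 9 members held TTCCNGGAA, which is present in 1.15% of 32851 such windows. Socs2 was not among them. The Socs3 window (chr11:117969317-117969616) rests on another start than the GENCODE one at 117970047 used above. It does not reach the Socs3 promoter copy at chr11:117969239-117969247.

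Enhancer probability, which the authors' classifier CRUP derived from the 3 histone marks on a scale from 0 to 1, came from libraries other than the ATAC-seq ones. Regions had been put on the list of dynamic enhancers for their difference between the states, so their probabilities are a description. Of the 327 regions in that list, 2 lay within 100 kb of a member, both near Pim1. Over all protein-coding genes, 4.54% had such a region within 100 kb, so 1 of 10 genes is little above the background. The nearer one (chr17:29510101-29511000) lies 13989 bp beyond the 3' end of Pim1, outside protein-coding genes, and the Pim1 start is the nearest gene start. Its probability was 0 in mESC+ and 0.893 in mESC-. It held 1 ATAC-seq peak in mESC- (pileup 15) and none in mESC+, and the region of highest local background ratio lay beside it. The other one (chr17:29399901-29400400), 90353 bp from Pim1, went from a probability of 0 in the mESC+ libraries to 0.797 in the mESC- ones and held no ATAC-seq peak, and the Fgd2 start is nearer to it. The 5 shared ATAC-seq regions within 7 kb of it had local background ratios of 0.45 to 0.71. Within 500 kb there were 6 regions in all. One near Socs2, in an intron of Cradd (chr10:95257401-95266300), stood at 0.86 in mESC+ and at 0 in mESC-, while one near Stat3, in an exon of Atp6v0a1, had 0.0196 and 0.911.

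RNA was available as the authors' mean normalised count over all 6 libraries, in a table that lists 2189 genes. No spread between libraries and no direction of change is given here. Of the members, 8 were listed, and Jak1 and Socs1 were not. The table is short beside the 21924 protein-coding genes of GENCODE M21. A missing row does not show that a gene is silent, since the stem cell markers Pou5f1 and Nanog were not listed either. Per kb of exon, the levels in order were Pim3 1632, Pim1 1384, Socs3 670.1, Il6st 406.3, Stat3 390.6, Lifr 354.7, Socs2 321.6 and Junb 117.7, against a median of 138.3 over the listed genes. The PIM kinase genes were thus the most abundant and Junb the least. Per kb of the longest transcript, Pim1 (1725) came before Pim3 (1632), so their order is not settled. The levels of Lifr, Il6st, Stat3 and Socs2 lay close together, and whether they differ beyond their spread could not be judged.

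Of 44 other genes of the LIF and JAK-STAT pathway, 40 had a promoter peak in both lists, and Osm, Cntf, Cntfr and Il11, which encode 3 cytokines and a receptor, had none in either. By pileup 21 of the 40 were lower in mESC-. Il6, which encodes interleukin 6, was the 1 promoter of the 40 past 1.5-fold (beside 1.12% of all promoters), with pileups of 23 and 11 and a fold enrichment ratio of -0.83. Its pileup ratio of -0.88 (-2.06 to 0.21) did not exclude 0. A dynamic enhancer region 25787 bp from Lif and 57275 bp from Osm (chr11:4298301-4303300) had probabilities of 0.0098 in mESC+ and 0.874 in mESC-, with ATAC-seq pileups up to 82 and 58. Another, 73562 bp from Bcl3, had 0.094 and 0.733 and held no peak. In the RNA table, 11 of the 44 were listed, the highest per kb of exon being Mcl1, an anti-apoptotic gene, at 6029, followed by Pim2 at 976.4 and Klf4 at 933.8.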

How the data were processed

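ATAC-seq, ChIP-seq and RNA-seq were analysed from the deposited tables. For ATAC-seq (Omni-ATAC, paired reads) the authors aligned reads with BWA-MEM to GRCm38, removed duplicates with SAMtools and called peaks per library with MACS2. The deposited peak columns hold the fold enrichment (a ratio), the -log10 p-value and q-value, and the summit offset. Enhancer probabilities are a fraction between 0 and 1 that the authors computed with CRUP from the 3 histone marks and input. For RNA, the deposited signal column is the authors' DESeq2 mean of normalised counts over all libraries. The RNA table's log2 fold change, error, statistic and p-values, and the region list's p-value and cluster, are the authors' comparison and were not used, so no direction of RNA change is given. How the listed genes were selected was not examined. Aligner roles differ between the sources (BWA-MEM or STAR 2.5.1b for RNA). The ChIP-seq data of further marks (5 libraries per state) were left out. 0 columns of per-sample values were left unmapped.

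Peaks within 100 kb of a gene body (GENCODE M21) were kept. Peaks overlapping by at least 1 bp were merged, with the strongest value per list. Summit pileup n and local background λ were solved from fold enrichment = (n + 1)/(λ + 1) and the Poisson p-value. A whole n gave the -log10 p-value to within 0.01 for 100% of peaks. Genome-wide backgrounds were 0.781 (mESC+) and 0.687 (mESC-). Promoter peaks lay within 500 bp of a protein-coding transcript start. A region was called at 1.5-fold. Total read numbers are unknown, so precision is given as exact Clopper-Pearson or Poisson 95% intervals for counting error only. Replicate spread could not be measured with 1 ATAC-seq library per state. Python 3.11.15, pandas 2.3.3, NumPy 2.4.6, SciPy 1.17.1 and pysam 0.24.0 were used, and the functions were tested on simulated data.

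The genes and lists were chosen with earlier results of these data known. Named were all 10 members, pathway genes with a promoter past 1.5-fold, in 1 list only or near a dynamic region, and for each member the promoter peak, the peak of each list alone with the strongest q-value, the extreme fold enrichment ratios and peaks with TTCCNGGAA. Other named regions and genes, and the pileup and local background measures, were chosen after seeing the data. Sequences are from GRCm38.p6 (RefSeq).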

Additional observations from a re-analysis of the deposited data

How the results depend on the processing

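The share of mESC+ peaks absent from the mESC- list was 29.2% and became 21.5% with the mESC+ list shortened to the length of the mESC- list (all mESC+ peaks 20.1%). The share of mESC- peaks absent from the mESC+ list was 12.5% and became 18.3% with that shortening, 6.52% at a -log10 q of at least 10 and 7.37% within 20 kb. The median promoter ratio of fold enrichment was 0.19, was 0.17 with 1 kb either side of the start, and corresponded to a median gain of 3.65 percentile ranks. It was -0.16 by summit pileup and -0.08 by -log10 p, so its sign depended on the measure; by pileup the sign differed for 3 of 9 promoters (Stat3, Socs2 and Pim3) and by -log10 p for 1 (Socs2), and Socs3 was below 0 in all 4 alternatives. Regions past 1.5-fold higher in mESC+ numbered 10, and 1 at a fold of 2, 2 at a -log10 q of at least 10, 3 within 20 kb and 24 by summit pileup. Those higher in mESC- numbered 8, and 1, 0 and 2 under the first 3 of these settings, and 10 by summit pileup (4.37% of shared member regions). By pileup, 7.83% and 5.37% of all shared regions were past the fold. Dynamic regions numbered 2, 1 within 20 kb and 6 within 500 kb. TTCNNNGAA was in 8.86% of member regions, beside 8.25% of all. With the whole peak searched, TTCCNGGAA was in 9 of 361 member regions (2.49%, 1.15 to 4.68), beside 0.966% of all. That setting added a Lifr intronic peak with pileups of 41 and 29 and a Pim3 peak with 49 and 35. The median RNA level per kb was 398.4 and became 669.3 with the longest transcript. The local background ratio near Socs3 (-0.45) was -0.43 within 20 kb, and near Pim1 (0.35) it was 0.63 within 20 kb and 0.40 without regions at the floor. No paired analysis was possible because each state has 1 ATAC-seq library and the RNA values are pooled. With a median pileup of 15 and 14, changes of about 2-fold or less at a single peak were mostly not detectable. Pileups of 26 and 13 near Stat3 gave an interval of -1.90 to 0.20, while the deeper 41 and 20 near Socs3 gave -1.70 to -0.05.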
